A study of Mus musculus with 12 samples.

Results

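The genes described here are the nuclear-encoded subunits of the mitochondrial respiratory chain and of ATP synthase, together with the assembly factors of complex I that share their naming. They were taken by symbol, as every gene whose name starts with Nduf followed by a, b, c, s or v, with Uqcr, with Cox4 to Cox8 or with Atp5, and Sdha to Sdhd and Cyc1, without listed pseudogenes. This gave 101 genes of 56748 in the count table, under 100 symbols because Atp5o is listed in 2 rows, of which 1 had no read. RNA was sequenced from G1E-ER4 cells, a murine erythroblast line without a working Gata1 gene of its own, in which a GATA1-estrogen receptor fusion lets estradiol start terminal erythroid differentiation. The 3 Sf3b1 K700E/+ libraries came from cells in which a heterozygous K700E codon had been introduced into Sf3b1, a core factor of branch point recognition, by CRISPR-Cas9 and a donor template, and the 3 Sf3b1 +/+ libraries from isogenic cells. The study's reporting summary describes the control as a CRISPR-Cas9 K700K wild-type line, so the control cells had been edited too. All 6 were collected after 24 h of estradiol. Each genotype is 1 clone, so that the mutation and any other difference between the clones cannot be told apart, and in bulk RNA a change of cell composition and a change of level per cell cannot be told apart either. Nothing in the labels says that the replicates were separate cultures, so a p-value here covers only their spread, which may be technical.

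The respiratory chain passes electrons from NADH (complex I) and succinate (complex II) through coenzyme Q, complex III and cytochrome c to oxygen at complex IV, and the proton gradient made on the way drives ATP synthase. Most subunits are made from nuclear genes and imported, whereas the mitochondrial genome encodes the hydrophobic centre of each complex apart from complex II. In erythroblasts the same organelle makes heme and iron-sulfur clusters, and some redox subunits of complexes I to III themselves hold such clusters. Mutant SF3B1 is known for the use of cryptic acceptors shortly upstream of the regular one. The sequences at 3 acceptor choices in member genes that passed the test are shown first. Among these an unannotated acceptor occurs in Atp5h alone, and Ndufa11 used its downstream acceptor more often in Sf3b1 K700E/+. Whether these choices are of the known kind was not tested.

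The 3 lines below give the start of the exon reached by the longer path in Cyc1, Atp5h and Ndufa11, 5′ to 3′, with the bases that only the longer path holds in capitals. The bases come from the GENCODE M21 transcripts (GRCm38), matched by intron length, whereas event coordinates are those of the event table (GRCm39). For Ndufa11 the lower case before the capitals is the end of the preceding exon.
Cyc1, chr15:76227855-76228516: GTGGGCTGCTGGGGTCTTGGCAGgtgctga
Atp5h, chr11:115309324-115310757: GGGTTCTCTCCAAAGgcgctgttttgtttt
Ndufa11, chr17:57028087-57028396: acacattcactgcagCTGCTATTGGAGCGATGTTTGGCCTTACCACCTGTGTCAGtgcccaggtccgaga
In each case the capitals end in AG, the bases that close an intron, and the shorter path joins just behind them. The 40 bases of Ndufa11 lie in its coding sequence. The 15 bases of Atp5h lie ahead of its start codon.

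Total counts were 44045337 to 50077827 in the Sf3b1 K700E/+ libraries and 38785471 to 40702174 in the Sf3b1 +/+ libraries, and the member genes took 1.49% to 1.53% and 1.55% to 1.61% of them. Levels are given as CPM, the reads of a gene scaled to a library of fixed size, after TMM scaling. Replicate 1 stood apart from replicates 2 and 3 in both genotypes, and for the members named below calls that change when both replicate 1 libraries are left out are given. Of 13 measured erythroid markers 1 was higher and 2 were lower. The number higher was 4 with the replicate number as a block, 3 without Sf3b1 K700E/+ replicate 1, 0 without its replicate 2 or 3, and 2 without Sf3b1 +/+ replicate 1 or 2. The markers had a summed level of 10094 to 16081 CPM in Sf3b1 K700E/+ and 12026 to 16433 CPM in Sf3b1 +/+. Markers of other lineages differed between the clones. The 12 granulocyte and macrophage markers summed to 1.26 to 1.71 CPM in Sf3b1 K700E/+ and 11.5 to 33.0 CPM in Sf3b1 +/+, with 4 at 0 in every library, and the 8 mast cell, basophil and eosinophil markers to 1.82 to 4.96 CPM and 22.8 to 87.6 CPM, with 1 at 0. The 8 megakaryocyte markers summed to 26.3 to 52.7 CPM and 56.5 to 104.7 CPM, with 3 at 0, and of 9 lymphoid markers 6 were at 0, none could be tested, and the sum was 0 in Sf3b1 K700E/+ and 0.0488 to 0.197 CPM in Sf3b1 +/+. Lower calls were given to 4 of 4 tested granulocyte and macrophage markers and 4 of 5 mast cell, basophil and eosinophil markers, beside 23.1% of all genes tested. Of these markers Lyz2, Cybb, Mmp8 and Epx had enough reads for the test only in Sf3b1 +/+, so a higher call was hardly possible. Among megakaryocyte markers 1 of 4 tested was lower, Itgb3, with means of 25.9 CPM against 64.3 CPM. That number was 2 with the replicate number as a block and without Sf3b1 +/+ replicate 1. The part of cells of other lineages in the differences below was not tested.

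Enough reads for the test were found for 91 of the 101 genes. Of these 12 were higher and 17 lower in Sf3b1 K700E/+ at an adjusted p under 0.05 (edgeR quasi-likelihood test, adjusted over 12547 genes). Over all tested genes 21.3% were higher and 23.1% lower, which is 44.4% in all. The median log2 fold change was -0.05 over the 91 members and -0.01 over all tested genes. Only Cox6b2 also exceeded a log2 fold change of 1, the size that makes a DEG here, as did 10.3% of all genes tested together with the p threshold. Cox6b2 had enough reads for the test only through the Sf3b1 K700E/+ libraries, where it is high. The genotypes did not overlap in 42 of the 91 members, and in 54.3% of all genes. As a sum, the members stood at 14870, 15549 and 15666 CPM in Sf3b1 K700E/+ and at 15695, 15917 and 15332 CPM in Sf3b1 +/+. This sum overlapped between the genotypes after TMM scaling, whereas the share of total counts given above was below every control in each mutant library. Summed by role after TMM scaling, the libraries of the genotypes were apart for the core of complex I, complex II and the Fo and stalk genes, all lower in Sf3b1 K700E/+, and for complex III and the complex I assembly factors, both higher. In complex III, however, 6 of 9 log2 fold changes were below 0, with a median of -0.02. Its sum averaged 1997 CPM in Sf3b1 K700E/+ and 1845 CPM in Sf3b1 +/+. Uqcrc2, a gene of chromosome 7, took 479 and 325 CPM of these means. The sums of complex I accessory subunits, complex IV and F1 overlapped.

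**Figure D1:**
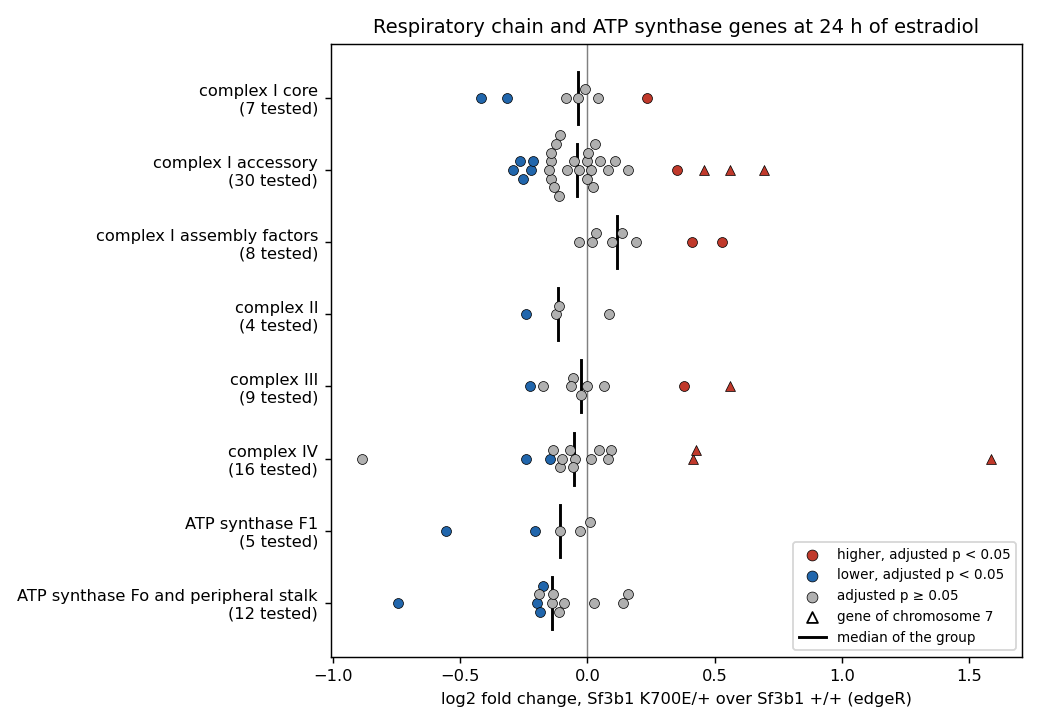
Log2 fold change of the 91 tested members (points, x axis, Sf3b1 K700E/+ over Sf3b1 +/+, n = 3 libraries each) by role group (y axis), with red for higher, blue for lower, grey for not past the test, triangles for genes of chromosome 7 and black lines for the group medians. Most points lie close to 0, the ATP synthase groups hold no red point, and 7 of the 12 red points are triangles.

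Complex I oxidizes NADH, and its 7 nuclear-encoded core subunits hold the flavin and the iron-sulfur clusters. Of these 1 was higher, 2 were lower and 4 did not pass the test. Ndufv1, which binds NADH and the flavin, was at 112, 110 and 116 CPM in Sf3b1 K700E/+ and at 153, 151 and 148 CPM in Sf3b1 +/+. All 3 mutant libraries lay below all 3 controls, with a log2 fold change of -0.42 ± 0.0534 (SE, n = 3 per genotype, adjusted p = 0.000267). Ndufs3, a core subunit of the same peripheral arm without a cluster of its own, went the other way. Its levels were 136, 143 and 139 CPM in Sf3b1 K700E/+ and 120, 122 and 113 CPM in Sf3b1 +/+ (log2 fold change 0.23 ± 0.0565, adjusted p = 0.00909). The cluster-bearing subunits Ndufs1, Ndufs7, Ndufs8 and Ndufv2 had log2 fold changes of -0.04, -0.01, -0.09 and 0.04, with adjusted p between 0.277 and 0.916.

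Around this core sit accessory subunits, of which 34 are listed and 30 were tested. Of these 4 were higher, 5 were lower and 21 did not pass, with a median log2 fold change of -0.04. Ndufc2, a subunit of the membrane arm, was at 112, 108 and 108 CPM in Sf3b1 K700E/+ and at 77.9, 60.1 and 65.3 CPM in Sf3b1 +/+. It showed the widest difference of the group (log2 fold change 0.69 ± 0.0912, adjusted p = 0.000308). Ndufab1, the mitochondrial acyl carrier protein, stood at 140, 143 and 134 CPM against 105, 90.0 and 87.6 CPM (log2 fold change 0.56 ± 0.0776, adjusted p = 0.000426). The levels of Ndufa3 were 66.0, 71.3 and 70.9 CPM against 46.9, 55.3 and 49.3 CPM (log2 fold change 0.46 ± 0.0751, adjusted p = 0.00111). Ndufb10, the only higher accessory subunit that is not a gene of chromosome 7, was at 126, 137 and 136 CPM against 104, 109 and 99.9 CPM (log2 fold change 0.35 ± 0.061, adjusted p = 0.00149). Mutant and control libraries were fully apart for each of these 4. The lower accessory subunits were Ndufa13, Ndufb3, Ndufb7, Ndufa11 and Ndufb11, with log2 fold changes of -0.29, -0.27, -0.25, -0.22 and -0.22 and adjusted p between 0.011 and 0.0317. Each of these 5 calls was lost when at least 1 single library was left out, and all 5 without Sf3b1 +/+ replicate 2. Ndufa11b, Ndufb4c, Ndufb11b and Ndufs6b had too few reads for the test.

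Of the 8 complex I assembly factors, which help to build the complex and are not part of it, 2 were higher and none lower, with a median log2 fold change of 0.12. Ndufaf4 was at 58.4, 53.3 and 52.6 CPM in Sf3b1 K700E/+ and at 43.6, 32.4 and 37.9 CPM in Sf3b1 +/+ (log2 fold change 0.53 ± 0.104, adjusted p = 0.00295). Ndufaf7, a mitochondrial methyltransferase, was at 31.3, 28.4 and 27.7 CPM against 21.6, 23.2 and 20.8 CPM (log2 fold change 0.41 ± 0.0818, adjusted p = 0.00313). In both genes every mutant library lay above every control. The summed level of the 8 factors was 201, 202 and 198 CPM in Sf3b1 K700E/+ and 170, 170 and 171 CPM in Sf3b1 +/+, without overlap.

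Complex II links the citric acid cycle to the chain, and all of its 4 subunits are nuclear. Sdha, the flavoprotein that oxidizes succinate, was at 321, 309 and 317 CPM in Sf3b1 K700E/+ and at 380, 377 and 364 CPM in Sf3b1 +/+. It was lower by a log2 fold change of -0.24 ± 0.0525 (adjusted p = 0.00505), with the genotypes apart. Sdhb, which carries the iron-sulfur clusters, had levels of 87.0, 91.4 and 84.7 CPM against 96.5, 101.5 and 88.7 CPM, which overlap. It did not pass (log2 fold change -0.12 ± 0.0674, adjusted p = 0.165), but did so with the replicate number as a block (adjusted p = 0.0458). The membrane anchors Sdhc and Sdhd had log2 fold changes of -0.11 and 0.09 and did not pass, although Sdhd did without both replicate 1 libraries (0.15, adjusted p = 0.0216).

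In complex III, which hands electrons from coenzyme Q to cytochrome c, 2 of 9 genes were higher and 1 was lower. Uqcrc2, a core protein on the matrix side, was at 473, 490 and 475 CPM in Sf3b1 K700E/+ and at 325, 329 and 322 CPM in Sf3b1 +/+ (log2 fold change 0.56 ± 0.0517, adjusted p = 4.48e-05). Its partner Uqcrc1 was at 347, 341 and 353 CPM against 340, 329 and 324 CPM and did not pass (log2 fold change 0.07, adjusted p = 0.337). Libraries of the genotypes were apart in both core proteins. In Uqcrc1, however, the lowest mutant library (340.6 CPM) and the highest control (340.1 CPM) were nearly level. The test was passed by Uqcrc2 alone, while the difference between the 2 genes was not tested. Uqcrq, a small subunit, was at 151, 174 and 169 CPM against 123.7, 134.0 and 122.998 CPM (log2 fold change 0.38 ± 0.0702, adjusted p = 0.00219). The Rieske iron-sulfur protein Uqcrfs1 was at 152, 142 and 141 CPM against 187, 169 and 152 CPM (log2 fold change -0.23 ± 0.0796, adjusted p = 0.0445). The highest mutant library (151.7 CPM) and the lowest control (152.1 CPM) were nearly level, and the call was lost without any 1 of Sf3b1 K700E/+ replicates 1 to 3 or Sf3b1 +/+ replicates 1 and 2. It was also lost with DESeq2 size factors (adjusted p = 0.0542). Cyc1, the cytochrome c1 subunit, stood at 213, 213 and 212 CPM against 232, 214 and 203 CPM and did not pass (log2 fold change -0.02, adjusted p = 0.778).

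Of the complex IV genes, whose mitochondrially encoded partners hold the heme and copper sites, 16 of 21 were tested, with 3 higher and 2 lower. Cox6b1, a subunit that faces the intermembrane space, was at 264, 297 and 300 CPM in Sf3b1 K700E/+ and at 209, 234 and 203 CPM in Sf3b1 +/+ (log2 fold change 0.42 ± 0.0757, adjusted p = 0.00197). Ndufa4, once assigned to complex I and now counted to complex IV, was at 137, 136 and 135 CPM against 175, 152 and 156 CPM (log2 fold change -0.24 ± 0.066, adjusted p = 0.0151). Its call was lost without Sf3b1 K700E/+ replicate 2 or 3. Cox4i1, a subunit that binds ATP and tunes the enzyme, had a log2 fold change of 0.09 and did not pass (adjusted p = 0.212), but did so without both replicate 1 libraries (0.13, adjusted p = 0.0495). Cox6a1, Cox7b and Cox8a, the common forms of 3 further subunits, had log2 fold changes of 0.01, -0.07 and -0.10 and did not pass either.

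Several complex IV subunits have a second gene that is mainly used in 1 tissue, and the data allow the pairs to be set side by side. Cox6b2, the testis form of Cox6b1, was counted with 24, 23 and 12 reads in Sf3b1 K700E/+ and with 6, 7 and 4 reads in Sf3b1 +/+, or 0.479, 0.512 and 0.281 CPM against 0.151, 0.171 and 0.0984 CPM. The log2 fold change was 1.59 ± 0.374 (adjusted p = 0.00783) at a level far below that of its partner. Cox6b2 passed the filter on low counts only through its Sf3b1 K700E/+ libraries, so a lower call was hardly possible. Per kilobase of transcript it stood at 0.974 ± 0.288 CPM (SD, n = 3) in Sf3b1 K700E/+, where Cox6b1 stood at 591 ± 41.0 CPM. Cox7a1, the form of heart and skeletal muscle, was at 11.7, 13.2 and 12.3 CPM against 9.43, 9.20 and 9.05 CPM (log2 fold change 0.43 ± 0.0937, adjusted p = 0.00546). Its common partner Cox7a2 was at 173, 172 and 173 CPM against 193, 192 and 188 CPM (log2 fold change -0.15 ± 0.0502, adjusted p = 0.0414), lost also with DESeq2 size factors. The genotypes were apart in both genes of this pair, in opposite directions, although the call of Cox7a2 was lost when any 1 library was left out. Per kilobase of transcript Cox7a1 remained the lower of the pair, at 28.3 ± 1.69 CPM beside 262 ± 0.851 CPM in Sf3b1 K700E/+.

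Ndufa4l2, a hypoxia-inducible relative of Ndufa4, was at 41.5, 88.4 and 69.6 CPM in Sf3b1 K700E/+ and at 67.6, 144 and 156 CPM in Sf3b1 +/+. In each genotype replicate 1 was the lowest library, and the groups overlapped through it. The log2 fold change of -0.89 ± 0.327 did not pass (adjusted p = 0.0531), but passed with the replicate number as a block (-0.86, adjusted p = 4.38e-06) and without both replicate 1 libraries (-0.92, adjusted p = 2.23e-05). The heart and muscle form Cox6a2, too rare for the test, was counted with 19, 15 and 9 reads against 0, 0 and 2. Cox4i2 had 0 to 2 reads in any library, and Cox7b2, Cox8b and Cox8c had none.

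**Figure D2:**
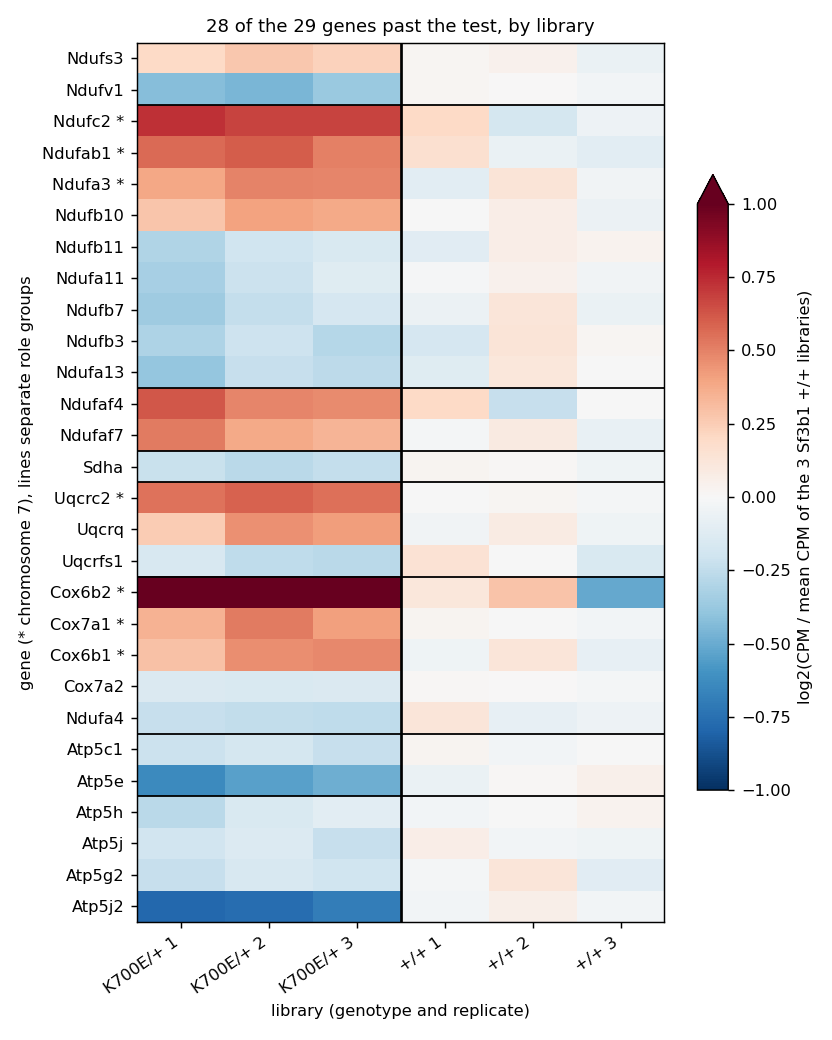
Level of 28 of the 29 members that passed the test (rows, an asterisk for genes of chromosome 7) in each of the 6 libraries (columns), coloured by log2 of CPM over the mean of the 3 Sf3b1 +/+ libraries, with the scale ending at 1 and -1. Atp5j2 and Atp5e are the deepest blue rows in the Sf3b1 K700E/+ columns, and the rows marked by an asterisk are all red there.

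ATP synthase couples proton flow through its membrane part, Fo, to catalysis in the F1 head. Of 17 tested genes none was higher and 6 were lower, with a median log2 fold change of -0.14 and 13 values below 0. With the replicate number as a block 1 was higher (Atp5l, log2 fold change 0.16, adjusted p = 0.0335) and 8 were lower. In F1, the catalytic pair Atp5a1 and Atp5b, the latter the most abundant member of all by CPM, had log2 fold changes of -0.03 and 0.01 (adjusted p = 0.722 and 0.906). Of the 3 central stalk genes 2 were lower. Atp5e, the epsilon subunit, was at 45.4, 48.5 and 50.5 CPM in Sf3b1 K700E/+ and at 67.6, 71.5 and 73.1 CPM in Sf3b1 +/+ (log2 fold change -0.55 ± 0.0653, adjusted p = 0.000166). Atp5c1, the gamma subunit that turns inside the head, was at 306, 315 and 303 CPM against 363, 350 and 354 CPM (log2 fold change -0.21 ± 0.052, adjusted p = 0.0108). Neither gene overlapped between the genotypes. Atp5d, the delta subunit and the remaining stalk gene, did not pass (log2 fold change -0.11, adjusted p = 0.216).

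In the membrane part and the peripheral stalk, 4 of 12 tested genes were lower. Atp5j2, the f subunit, was at 179, 182 and 192 CPM in Sf3b1 K700E/+ and at 304, 322 and 303 CPM in Sf3b1 +/+. This was the lowest log2 fold change among the 29 members past the test (-0.75 ± 0.057, adjusted p = 1.59e-05). Atp5j, Atp5h and Atp5g2, which encode coupling factor 6, subunit d and 1 of the 3 gene copies of the c ring, had log2 fold changes of -0.19, -0.17 and -0.20 (adjusted p = 0.0263, 0.0412 and 0.0474). Their genotypes were apart, but all 3 calls were lost without Sf3b1 K700E/+ replicate 1 or 2 or without Sf3b1 +/+ replicate 2, and that of Atp5g2 also without both replicate 1 libraries (adjusted p = 0.063). Atp5j and Atp5g2 were lost without Sf3b1 K700E/+ replicate 3 as well, and Atp5h without Sf3b1 +/+ replicate 3. With no filter on low counts all 3 were lost. DESeq2 size factors lost Atp5h and Atp5g2 (adjusted p = 0.054 and 0.064), and upper quartile scaling and the DESeq2 Wald test lost Atp5g2. Atp5g1 and Atp5g3, the other c ring genes, had log2 fold changes of 0.14 and -0.14 and did not pass. The Fo and stalk genes together summed to 1931, 2001 and 2020 CPM against 2283, 2173 and 2168 CPM, without overlap, whereas the 5 F1 genes summed to 3800, 3894 and 3985 CPM against 4023, 4047 and 3907 CPM, with overlap.

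Every call above was repeated without each of the 6 libraries. The count of higher members stayed between 12 and 15, but that of lower members was 8 without Sf3b1 K700E/+ replicate 1, 9 without its replicate 2 and 8 without Sf3b1 +/+ replicate 2, from 17. Without both replicate 1 libraries 17 were higher and 18 lower. Of the 29 calls, 18 held without any 1 library, namely all 12 higher ones and 6 lower ones, among them Ndufv1, Sdha, Atp5c1, Atp5e and Atp5j2. With the replicate number as a block 15 members were higher and 25 lower, against 27.7% and 29.2% of all genes.

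Position in the genome was looked at after these values had been seen. All 7 tested members on chromosome 7 were higher, namely Ndufa3, Cox6b2, Cox7a1, Cox6b1, Ndufc2, Uqcrc2 and Ndufab1. Among them Cox6b2 was tested only because of its reads in Sf3b1 K700E/+. Of the 84 members on other chromosomes 5 were higher and 17 lower. Among all tested genes, 60.0% of the 954 on chromosome 7 were higher and 7.34% lower, against 18.3% and 24.5% of those on other chromosomes. The median log2 fold change was 0.46 on chromosome 7 and between -0.09 and 0.03 on the 19 other chromosomes. Relative to the mean of the controls, the median gene of chromosome 7 stood at a log2 ratio of 0.42, 0.43 and 0.45 in the Sf3b1 K700E/+ libraries and at -0.03, 0.02 and 0.01 in the Sf3b1 +/+ libraries. The mutant libraries thus had shifts of like size, while the control values lie around 0 by construction, since those libraries make up the mean.

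**Figure D3:**
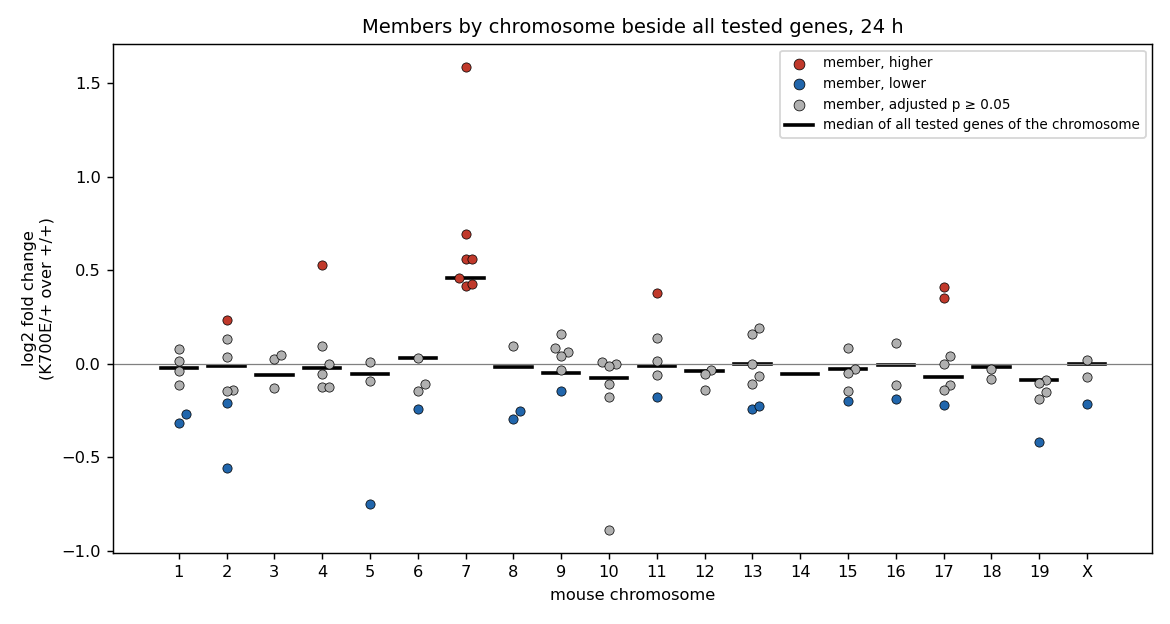
Log2 fold change of the 91 tested members (points, y axis) by chromosome (x axis), coloured by call, with a black line for the median of all tested genes of that chromosome. The line of chromosome 7 lies at 0.46 with the 7 members around or above it, and the lines of the other chromosomes lie between -0.09 and 0.03.

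The shift ran along the whole chromosome. In 19 consecutive windows of 50 tested genes the median log2 fold change lay between 0.37 and 0.59,. The lower and upper quartiles of log2 fold change on chromosome 7 were 0.10 and 0.74, and 6 of the 7 members lay inside this range, between 0.42 for Cox6b1 and 0.69 for Ndufc2, with Cox6b2 above it. The members of chromosome 7 summed to 1068, 1124 and 1100 CPM in Sf3b1 K700E/+ and to 773, 778 and 736 CPM in Sf3b1 +/+. Whether the number of copies of chromosome 7 differs between the clones was not tested. With its genes left out of the counts, the scaling and the test, an analysis added after the data had been seen, 6 members were higher and 12 lower. Atp5l passed in addition (log2 fold change 0.18, adjusted p = 0.042), and Ndufb11, Cox7a2, Atp5h, Uqcrfs1 and Atp5g2 no longer passed.

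**Figure D4:**
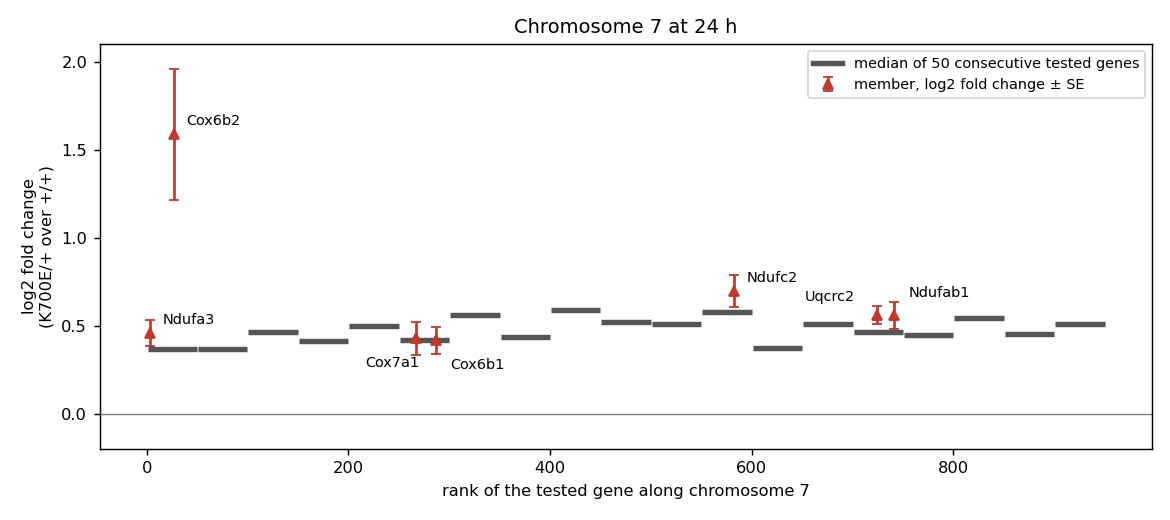
Log2 fold change (y axis) along the tested genes of chromosome 7 in their order (x axis, rank), with grey bars for the medians of 50 consecutive genes and red triangles with SE bars for the 7 members. The grey bars lie between 0.37 and 0.59 throughout, and 6 members lie near them while Cox6b2 stands at 1.59.

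Splicing events that involve member genes numbered 65 of 19323 in the event table. An event compares the reads of a longer and a shorter path, and PSI is the share of the longer path after each is divided by its length. With at least 10 reads in every library 56 events in 29 member genes could be tested. An adjusted p under 0.05 (edgeR on the reads of both paths, over 17648 events) was reached by 11 of the 56, against 9.52% of all events. A differential splicing event (DSE) also needed a PSI difference over 0.10, and 9 of the 56 (16.1%) were DSEs, against 6.31% of all. With the replicate number as a block 5 had a higher and 4 a lower PSI, against 7.46% of all. These 9 lay in 4 member genes and are not independent, since the 5 in Ndufs1 share reads, as do the 2 in Cyc1.

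In Atp5h, the event with the largest PSI difference, the longer path used an annotated acceptor and the shorter path an unannotated one 15 bases further downstream, at the end of the capitals shown above. The shorter path had 20, 23 and 30 reads in Sf3b1 K700E/+ and 2, 2 and 0 reads in Sf3b1 +/+, while the longer path had 17, 12 and 14 reads against 17, 19 and 15. PSI was 0.416, 0.304 and 0.281 against 0.877, 0.888 and 1, which is 0.334 ± 0.0721 against 0.922 ± 0.0679 (SD, n = 3, adjusted p = 3.13e-05). Reads of the new acceptor were thus more numerous in each mutant library than in any control. They were few beside the 9029, 8754 and 8613 counts of the whole gene in the Sf3b1 K700E/+ libraries. At a minimum of 20 reads in every library the event could not be tested. Another annotated acceptor, 19 bases further downstream, is in neither path, so that PSI describes these 2 paths only. The level of Atp5h was lower, as given above, by a call that was lost without single libraries.

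Cyc1 showed a similar arrangement in its first intron. Both events there concern acceptors upstream of the one that the main coding transcript uses, which is in neither path. In the intron retention event (chr15:76227855-76228494) the spliced path, which removes 564 bases and ends 45 bases ahead of the main acceptor, had 32, 31 and 18 reads in Sf3b1 K700E/+ and 0, 1 and 2 reads in Sf3b1 +/+. PSI, here the share of retention, was 0.573 ± 0.0426 against 0.976 ± 0.0243 (SD, n = 3, adjusted p = 4.33e-08). In the acceptor event the choice was between that acceptor and one 23 bases further on. The path with the 23 bases had 63, 46 and 34 reads against 8, 13 and 10, and the path without them 3, 1 and 0 reads against 4, 2 and 5. PSI was 0.971 ± 0.0293 against 0.681 ± 0.132 (adjusted p = 0.00636), a call lost without Sf3b1 +/+ replicate 3 (adjusted p = 0.0599). Reads of the most upstream acceptor were higher in every mutant library in both events. The level of Cyc1 itself, as given above, overlapped between the genotypes.

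Ndufs1 had 5 DSEs, all around 2 optional exons of 104 and 52 bases in the first intron of its coding transcripts, ahead of the exon with the start codon. The 104-base exon was included more often in Sf3b1 K700E/+. Counted against the first of 2 alternative donors of exon 1 (chr1:63210037-63215785), it had 322, 291 and 247 reads in Sf3b1 K700E/+ and 139, 128 and 117 reads in Sf3b1 +/+, with 354, 328 and 289 reads against 376, 283 and 279 that skipped it. PSI was 0.275 ± 0.00624 against 0.150 ± 0.0129 (adjusted p = 7.65e-05). Counted against the other donor (chr1:63210035-63215627), PSI was 0.511 ± 0.0288 against 0.325 ± 0.00402 (adjusted p = 0.000741). Inclusion with the 52-base exon beside it rose likewise, to 0.437 ± 0.0295 from 0.274 ± 0.00778 (adjusted p = 0.00171), a call lost with limma (adjusted p = 0.0609). The last 2 events, a donor choice of 158 bases and the same with the 52-base exon, had PSI differences of -0.12 and -0.14 (adjusted p = 0.0324 and 0.025). Both were lost with limma and when longer-path reads were taken as the deposited PSI takes them. They were also lost without any 1 of the Sf3b1 K700E/+ libraries or without Sf3b1 +/+ replicate 2. The donor choice of 158 bases was lost without Sf3b1 +/+ replicate 3 too. With longer-path reads as in the deposited PSI the first event also stayed under a PSI difference of 0.10 (0.085). As with Cyc1, the gene's level did not pass the test.

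The last DSE was the first intron of Atp5j, of 437 bases, at chr16:84631832-84632349. It overlaps the first exon of Gabpa, a transcription factor of many respiratory genes that is read from the other strand. Its retention was 0.26 ± 0.00698 in Sf3b1 K700E/+ and 0.158 ± 0.0134 in Sf3b1 +/+ (adjusted p = 0.00186). The call was lost with limma (adjusted p = 0.0866) and with longer-path reads as in the deposited PSI (PSI difference 0.066), and the table names both genes for this event. From which of the 2 genes the longer-path reads came was not tested. Gabpa was at 116, 114 and 111 CPM in Sf3b1 K700E/+ and at 104, 106 and 95.8 CPM in Sf3b1 +/+. These libraries were apart, but Gabpa did not pass the gene test (log2 fold change 0.16, adjusted p = 0.063). Below the PSI threshold, Ndufa11 used the acceptor downstream of the 40 coding bases shown above more often. The path without them had 88, 84 and 75 reads against 34, 32 and 30, and PSI was 0.896 ± 0.0112 against 0.961 ± 0.00483 (adjusted p = 5.39e-06). The genotypes did not overlap, and the loss of 40 bases shifts the reading frame. Ndufaf3 retained an intron of 148 bases less often, at 0.0491 ± 0.0169 against 0.0963 ± 0.0168 (adjusted p = 0.0266), a call lost with limma (adjusted p = 0.153) and without 4 of the 6 libraries in turn. The next events by adjusted p, in Sdhd (0.0959) and Ndufaf5 (0.132), did not pass.

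**Figure D5:**
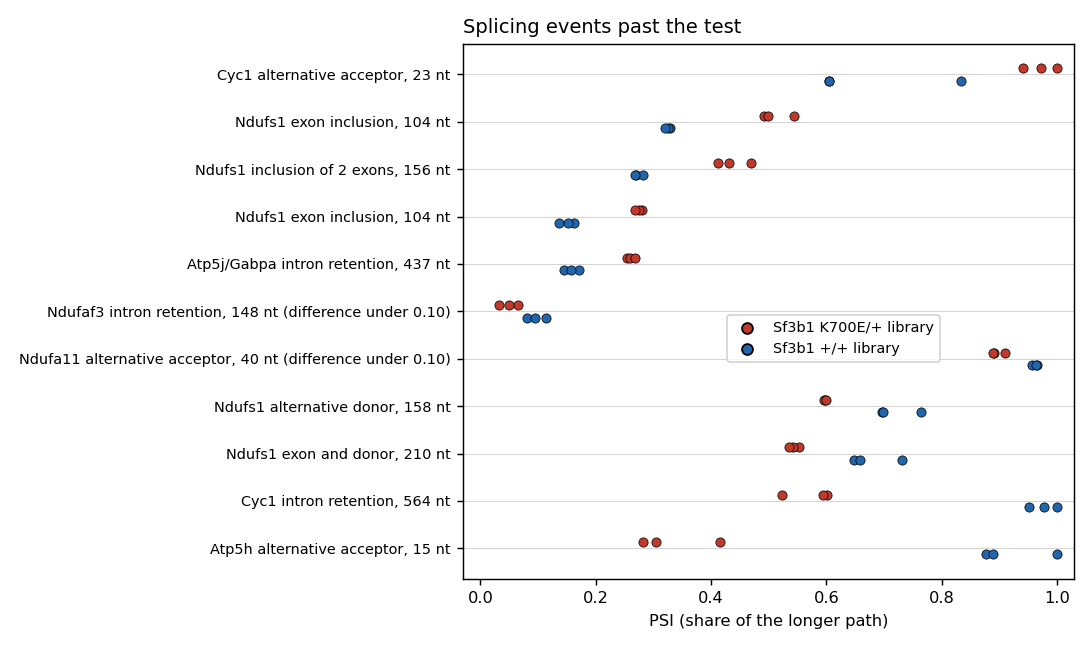
PSI (x axis, share of the longer path) of the 11 member events past the test (rows, with the length of the variable part in nucleotides) in each Sf3b1 K700E/+ library (red) and each Sf3b1 +/+ library (blue). The colours do not overlap in any row, and the widest gaps are in Atp5h and in the Cyc1 intron.

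Other genes of the pathway were counted in 10 lists with 129 tested genes, of which 33 (25.6%) were higher and 19 (14.7%) lower, against 21.3% and 23.1% of all genes tested. Without Sf3b1 +/+ replicate 2 or replicate 3 the number higher was 21 or 17. The mitochondrial genome, which encodes the partners of these subunits, had 13 genes, of which 10 were tested, 4 were lower and none higher, with a median log2 fold change of -0.40. mt-Nd2 and mt-Nd4, both membrane subunits of complex I, had log2 fold changes of -1.67 and -0.98, and the list summed to 10703 to 12933 CPM in Sf3b1 K700E/+ and 15866 to 18741 CPM in Sf3b1 +/+. mt-Co1, the catalytic subunit of complex IV, had a log2 fold change of 0.01 (adjusted p = 0.942), so the lower calls did not cover the list. mt-Atp6, mt-Co2 and mt-Co3 were at under 3 CPM in every library.

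Of the assembly factors outside the member names, 6 of 13 for complex I were higher and 1 lower (2 without Sf3b1 +/+ replicate 1), and Dmac2 and Tmem126a had the lowest adjusted p, with log2 fold changes of 0.88 and 0.80. Both lie on chromosome 7, which holds 3 of the 13. For complex II 2 of 4 were higher, Sdhaf1 (0.51, chromosome 7) and Sdhaf2 (0.17), but 1 without any library other than Sf3b1 +/+ replicate 1. Another 1 was lower with the replicate block and without that library. For complex III none of 6 passed, while 1 was higher and 1 lower with the replicate block, with Lyrm7 at -0.52 and Uqcc3 at 0.15 (adjusted p = 0.0834 and 0.134). For complex IV 4 of 25 were higher (2 without Sf3b1 +/+ replicate 3) and 6 lower, with Cox19 and Coa3, at log2 fold changes of -0.93 and -0.72, the lowest by adjusted p. All 5 factors for ATP synthase passed, 4 higher and 1 lower, with Atpaf1 at 0.32 and Dmac2l at -0.35. None of the 4 was higher without Sf3b1 K700E/+ replicate 2, Sf3b1 +/+ replicate 2 or Sf3b1 +/+ replicate 3, and Dmac2l was not lower without the last of these. Coenzyme Q synthesis and cytochrome c had 6 of 15 higher and 2 lower, with Coq3 at 1.04 and Coq8a at -0.97.

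The citric acid cycle, which feeds the chain, had 1 of 14 genes higher (Suclg2, 0.33) and 1 lower (Idh2, -0.68, a gene of chromosome 7). The number higher was 3 with the replicate block, 2 without Sf3b1 K700E/+ replicate 1, without Sf3b1 +/+ replicate 1 or with DESeq2, and 0 without Sf3b1 +/+ replicate 3, and the number lower was 2 with the block. Of 22 regulators of mitochondrial biogenesis 5 were higher (9 with the replicate block or without Sf3b1 +/+ replicate 1) and 2 lower (0 or 1 with DESeq2 or without any library but Sf3b1 +/+ replicate 3), with Twnk, the mitochondrial helicase, at 0.61 and Gabpb1, the partner of Gabpa, at 0.46. Iron-sulfur cluster assembly had 5 of 15 higher and 2 lower, with Glrx5, a glutaredoxin that hands on clusters, at 0.32. Leaving out Sf3b1 K700E/+ replicate 1 gave 3 higher, and leaving out Sf3b1 +/+ replicate 2 or 3 gave 2. The number lower was 0 or 1 without any library but Sf3b1 +/+ replicate 1.

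For 77 of the 100 symbols RefSeq (GRCm38.p6) gave 82 promoter sequences, from 250 bases before to 50 after the start. On either strand the letters CCGGAAG, an ETS motif of the kind that Gabpa binds, were found in 23.2% of them and in 8.86% of all 32851 promoters. Consensus motifs of NRF1 and YY1, searched likewise, were found in 24.4% and 6.1% of the members and in 4.6% and 0.633% of all. A match describes the letters only.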

How the data were processed

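The authors aligned the reads to GRCm39 with STAR 2.7.9 per the labels and deposited one unnormalized count for each gene in each library. The study's reporting summary names STAR for counting too, in a statement on the human genome, and the strand setting is not given in the sources used here. They also deposited a table of splicing events with read numbers of both paths for 2 read files per library, packed with a PSI. Only libraries at 24 h are in these tables, and those at 0 h were not analysed here. DESeq2 1.30.1 is named for the authors' comparisons, which were not used.

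Genes were tested in edgeR 4.0.16 (R 4.3.3) with TMM scaling and filterByExpr by genotype, and p-values were adjusted by Benjamini-Hochberg over all genes. Event reads were summed over both read files, and edgeR tested whether the path ratio differed by genotype. Tested on simulated data for this comparison, 86% of genes changed 1.5-fold and 100% of those changed 3-fold were called among 12369 genes, with 12 unchanged genes called, and 75.5% of events whose read share moved by 0.2 were called among 17397 events. Changes under 1.5-fold and a shared deviation of libraries of the same number were not simulated. The rates therefore do not cover the smaller differences reported above. Changed events were drawn only from well-covered ones in which both paths were common, with a fixed dispersion. Pairs of libraries within a genotype differed by more than sampling noise, at 9.53 to 43.0 chi-square units per degree of freedom. Libraries of the same number deviated together from their genotype means (correlations 0.627, 0.484 and 0.48 over 8771 genes). Across numbers, Sf3b1 K700E/+ replicate 2 and Sf3b1 +/+ replicate 3 correlated at 0.197, and replicate 3 and replicate 2 at 0.249. Deviations from a mean of 3 libraries sum to 0, so these values are not independent. The main test did not use the numbers as pairs, and the replicate block was an alternative that did. Counting intervals would cover counting error only and are not printed.

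The members and gene lists were chosen with earlier results of these data known. Named were member DEGs, in each role group the 4 members of lowest adjusted p that passed with separate genotypes, every catalytic or redox core subunit, tissue forms beside their partners, members with a DSE and the 4 others with the lowest event p, and 2 genes of lowest adjusted p in each list. Ndufa13, Ndufb3, Ndufb7, Ndufb11, Uqcrc1, Sdhc, Atp5d, Atp5g1, Atp5g3 and Atp5l fall outside this rule and were added after their values were seen. The same holds for Gabpa, mt-Co1, mt-Atp6, mt-Co2, mt-Co3, Mmp8 and Epx in the lists. Members with too few reads for the test, and Ndufs5 and Ndufa12, are mentioned for their reads only. A member and a list gene that the rule names are not reported here. Chromosome names and gene order came from GENCODE M21 (GRCm38) by gene ID for 12267 of the tested genes, and 5295 of 5295 shared genes have the same chromosome in the event table. Lengths for levels per kilobase are medians over protein-coding transcripts of its basic set. Alternatives are listed in the closing section. The 15 listed pseudogenes of the members were left out. For Ndufs5, with 189 to 292 reads, the listed pseudogene had 878 to 1156, and for Ndufa12, with 1921 to 2542 reads, it had 797 to 1019, so that reads of these 2 genes may be split between copies.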

Additional observations from a re-analysis of the deposited data

How the results depend on the processing

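Settings were DESeq2 size factors, total counts only, upper quartile scaling, TMM without the mitochondrial genome, no filter, the DESeq2 Wald test (version 1.42.0), the replicate block, each library left out, and, added after the data had been seen, both replicate 1 libraries or chromosome 7 left out. Without single libraries members higher numbered 12 to 15 (from 12), members lower 8 to 18 (from 17), and list genes 17 to 38 higher (from 33) and 15 to 21 lower (from 19). Without chromosome 7 members higher were 6. Of the 29 calls, 18 kept direction and call in every setting that could test them. Among named members the calls of Atp5g2, Atp5h, Cox7a2 and Uqcrfs1 were lost with DESeq2 size factors. That of Atp5g2 was lost with upper quartile scaling and with the DESeq2 Wald test too. With no filter 6 calls were lost. The replicate block gave 15 higher and 25 lower, with 11 members gained, Sdhb and Ndufa4l2 among them, and 0 lost. Log2 values near 0, none past the test, changed sign with total counts for Atp5b (-0.033), Cox6a1 (-0.031), Ndufaf5 (-0.0074) and Ndufv2 (-0.0015), without chromosome 7 for Cyc1 (0.0019) and Ndufs7 (0.016), without both replicate 1 libraries for Cyc1 (0.030) and Ndufs7 (0.059), and with no filter for Ndufs7 (0.0050). Without single libraries the ranges were -0.015 to 0.040 for Atp5b, -0.028 to 0.089 for Cox6a1, -0.069 to 0.030 for Cyc1, -0.12 to 0.050 for Ndufaf3, -0.016 to 0.11 for Ndufaf5 and -0.069 to 0.047 for Ndufs7. Member DSEs with higher PSI (from 5) numbered 1 at a threshold of 0.20, 3 with limma (3.58.1), 0 without complex, paralog and SNP events and 2 with longer-path reads taken as in the deposited PSI, and those with lower PSI (from 4) numbered 2, 2, 1 and 2. Without single libraries they numbered 4 to 5 and 2 to 4. At minimums of 5 and 20 reads higher PSI numbered 5 and 4, and lower PSI 4 and 3. The median log2 fold change of all genes was -0.05 with total counts only and -0.01 with TMM. The causes were not tested. Tests at 0 h and of 24 h against 0 h were not run.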
